A study of Mus musculus with 9 samples.

Results

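Derivatives of B16, a cultured mouse melanoma line, that carried either of 2 hairpins named shAD4-1 and shAD4-2 were compared directly with each other across all genes. The libraries were taken by the hairpin their labels name, which gave 3 shAD4-1 and 3 shAD4-2 libraries, 6 of the 9 in the series. The remaining 3 libraries, from cells with a control hairpin (written shCotrol in the labels), serve here only as reference levels. The labels name no treatment, and all 3 groups grew in DMEM with fetal bovine serum. By its title the study concerned ADGRL4 in the dormancy and relapse of tumours, a Gαs-YAP1 pathway and blood vessel growth. The design text calls the hairpin groups knockdown derivatives with 3 biological replicates each. A single derivative line stands for each hairpin, so the p-values measure the spread between replicates of those lines, which may be partly technical, and a property of the hairpin cannot be told apart from a property of its line. Adgrl4 itself was not analysed here, so these values do not tell how far each hairpin lowered its target.

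A small hairpin RNA is processed by Dicer into a short guide that loads Argonaute and lowers transcripts it pairs with. Different hairpins against 1 gene share that target but have different guide sequences, and each guide can also pair through its seed with other transcripts. ADGRL4 (also called ELTD1) is an adhesion G protein-coupled receptor best known from endothelial cells.

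The gene counts summed to 35.8 to 36.9 M reads in the shAD4-1 libraries and to 31.3 to 36.4 M in the shAD4-2 libraries, against 31.5 to 36.4 M in the controls. The table held 21676 genes, of which 13393 were tested, and these held 99.961% of the reads of the hairpin libraries. The spread between replicates was small, with a biological coefficient of variation of 3.99%. The first principal component, with 46.7% of the variance, separated the hairpins, and the second, with 16.2%, set shAD4-2 replicate 3 (-22.4) apart from shAD4-2 replicates 1 and 2 (10.0 and 12.7). Most counts of list members and the chromosome medians below are therefore also given without that library. Of the genes named as called, Oas2, H2-D1, Vldlr and Fas lost the call without it. Melanoma cell markers were high in all libraries, with Dct at 4556 ± 74 CPM with shAD4-1 and 5095 ± 347 CPM with shAD4-2 (CPM, reads per M reads of the library, mean ± SD of 3 libraries, as throughout). Markers of other cells were low where they had a row. Rows existed for 6 of 10 endothelial, 6 of 12 leukocyte, 4 of 10 keratinocyte and 8 of 10 fibroblast markers. The endothelial markers summed to 1 to 1.09 CPM per shAD4-1 library and 1.65 to 1.88 CPM per shAD4-2 library, with Cdh5 and Erg at 0 reads in the latter. Only 1 endothelial marker, Vwf, was tested, and it was called higher with shAD4-2 (log2 0.84). It lost the call in 4 of the 6 runs that left out 1 library. Leukocyte markers summed to 6.97 to 7.76 and 7.58 to 8.4 CPM, and keratinocyte markers to at most 0.19 CPM. Fibroblast markers, 68.3 to 72.5 and 61.7 to 68.3 CPM, were mostly Pdgfrb. Protein genes encoded in the mitochondrion, 13 in number, took 3.74 ± 0.10% of the reads with shAD4-1 and 3.72 ± 0.15% with shAD4-2, with 2.45 ± 0.16% in the controls (exact permutation test between the hairpins, two-sided, p = 0.9, where 0.1 is the smallest p that 3 against 3 can give). Single genes among the 13 did differ, by log2 -0.55 to 0.59. In the test below 5 were higher with shAD4-2 (38.5%, against 18.2% of all tested genes) and 1 lower (7.69%, against 17.8%). Without shAD4-2 replicate 3 these counts were 4 and 6.

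Many genes differed between the lines, most of them by little. In the quasi-likelihood test of edgeR, with p-values adjusted over all tested genes by the Benjamini-Hochberg method, 4817 genes (36.0%) passed an adjusted p of 0.05, 2435 of them higher (18.2% of those tested) and 2382 lower (17.8%) with shAD4-2. Differences are given throughout as shAD4-2 relative to shAD4-1. The median called gene differed 1.17-fold, and 88.4% of the called genes differed by less than 1.5-fold. At least 2-fold differences numbered 49 higher (0.366%) and 181 lower (1.35%), most of them in genes with few reads. Where the higher group had a mean of 5 CPM or more, 4 were at least 2-fold higher and 21 lower. When the test asked for more than a 1.5-fold difference, 61 genes passed, 21 higher and 40 lower. With shAD4-2 replicate 3 left out the count was 4757, and 4271 of those genes were called with all 6 libraries too, in the same direction.

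**Figure D1:**
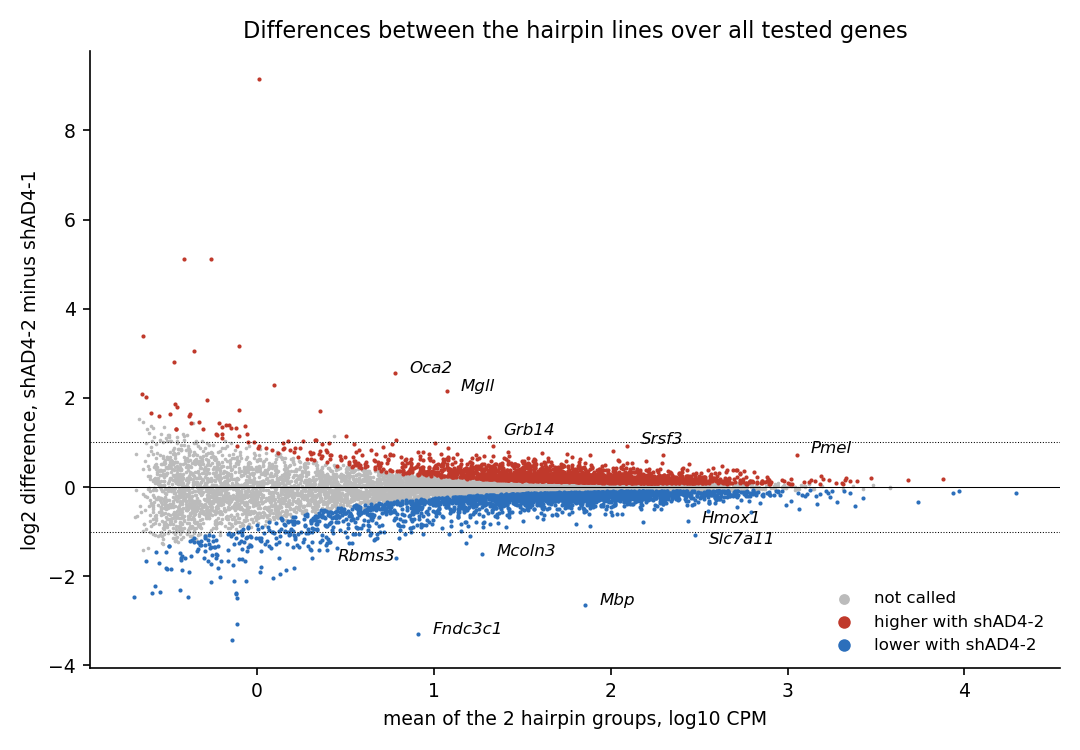
Difference between the hairpin lines (vertical axis, log2, shAD4-2 minus shAD4-1) against the mean level of the 2 groups (horizontal axis, log10 CPM) for the 13393 tested genes. Red and blue points passed an adjusted p of 0.05, dotted lines mark 2-fold, and most of the 4817 called genes lie well inside them, while Oca2, Mgll, Mbp and Fndc3c1 stand outside at higher levels.

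The control libraries show on which side of the reference the lines part. Of the 2435 genes higher with shAD4-2, the control mean lay below both hairpin groups for 1254 (51.5%), between them for 557 (22.9%) and above both for 624 (25.6%). Of the 2382 genes lower with shAD4-2, it lay above both for 1306 (54.8%), between them for 464 (19.5%) and below both for 612 (25.7%). Over all tested genes the control mean was below both groups for 39.1%, between them for 12.8% and above both for 48.0%, so a control above both lines was common among all genes too.

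Oca2, Mgll and Grb14 led the 12 largest rises, taken among called genes of at least 5 CPM whose libraries did not overlap, genes with clone names left out. Oca2, which encodes a melanosome membrane protein needed for pigmentation, read 1.74, 1.93 and 1.57 CPM in the shAD4-1 libraries and 11.3, 9.13 and 10.7 CPM in the shAD4-2 libraries. The control libraries (3.63 to 4.79 CPM) lay between the 2 groups. The log2 difference was 2.57 ± 0.14 (SE), or 5.93-fold, with an adjusted p of 3.77e-12. Mgll, monoacylglycerol lipase, which breaks down the endocannabinoid 2-arachidonoylglycerol, read 4.52, 4.72 and 3.74 CPM with shAD4-1 and 20.5, 20.6 and 16.9 CPM with shAD4-2. Controls read 5.47 to 7.21 CPM, nearer the shAD4-1 level, and the difference was 4.47-fold (log2 2.16 ± 0.11, adjusted p = 7.79e-13). Grb14, an adaptor that restrains insulin receptor signalling, read near the controls in shAD4-1 cells (12.9 ± 0.2 against 13.7 ± 0.9 CPM) and reached 27.9 ± 1.5 CPM in shAD4-2 cells, a 2.17-fold difference.

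Other rises joined genes that the controls express little. Spp1, the secreted phosphoprotein osteopontin, went from 6.73 ± 0.42 to 13.4 ± 1.3 CPM (1.99-fold), with 2.99 ± 0.43 CPM in the controls. Ptk7, a Wnt-linked receptor pseudokinase, went from 8.44 ± 0.44 to 15.6 ± 0.6 CPM (1.85-fold), and the transcription factor Atoh8 from 3.16 ± 0.18 to 5.62 ± 0.42 CPM (1.78-fold). In the controls Ptk7 read 0.687 to 1.05 CPM and Atoh8 0.222 to 0.495 CPM, so in both lines these genes stood above a low reference, by different amounts.

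Srsf3 showed the other arrangement. This SR protein, a splicing factor that also binds its own transcript, read 80.0, 87.4 and 88.4 CPM with shAD4-1 and 160, 148 and 175 CPM with shAD4-2. The shAD4-2 libraries overlapped the control range (145 to 162 CPM) and the shAD4-1 libraries lay below it. The lines differed 1.89-fold (log2 0.92 ± 0.05, adjusted p = 1.91e-12). H2bc4, an H2B histone, was below the controls with both hairpins and 1.96-fold higher with shAD4-2. Chadl (2.07-fold), Gen1, a resolvase of recombination intermediates (1.88-fold), and the Wnt receptor Fzd3 (1.73-fold) complete the 12 largest rises with Mlph, described with the pigment genes. Among genes of at least 100 CPM the splicing-linked genes Acin1 (1.49-fold) and Bclaf1 (1.46-fold) and Pik3r3, a regulatory subunit of PI3-kinase (1.53-fold), were also among the 8 largest rises.

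Among the 12 largest falls the control stood above both lines for several genes, Mbp and Fndc3c1 first among them, and between or below them for others. Mbp, myelin basic protein, read 124, 124 and 123 CPM in the shAD4-1 libraries and 18.1, 20.5 and 21.0 CPM in the shAD4-2 libraries, with 469 to 478 CPM in the controls. Replicates were tight and the 3 groups formed 3 separate levels. The difference between the hairpins was 6.24-fold (log2 -2.64 ± 0.05, adjusted p = 1.92e-21). Fndc3c1, which encodes a fibronectin type III domain protein, read 15.0, 14.4 and 15.1 CPM with shAD4-1 and 1.98, 1.66 and 0.828 CPM with shAD4-2, against 65.7 to 69.3 CPM in the controls. Its difference of 9.82-fold (log2 -3.30 ± 0.16, adjusted p = 7.18e-13) was the widest among genes of at least 5 CPM. Mcoln3, a cation channel of endosomes and lysosomes, stepped down in the same order, from 101 ± 13 CPM in the controls to 27.6 ± 3.5 CPM with shAD4-1 and 9.73 ± 0.52 CPM with shAD4-2.

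Slc44a3, a choline transporter-like protein (2.37-fold lower), and Art5, an ADP-ribosyltransferase (2.21-fold lower), had the same order of groups. Rbms3, an RNA-binding protein, did not. It read 7.84, 8.91 and 10.8 CPM with shAD4-1, near or above the controls (7.50 to 7.94 CPM), and 2.88, 2.36 and 3.85 CPM with shAD4-2, a 3.03-fold fall. Gucy1a1, a subunit of the nitric oxide receptor guanylate cyclase, was 6.35 ± 0.32 CPM with shAD4-1 and 2.78 ± 0.32 CPM with shAD4-2, both above the controls at 0.613 ± 0.287 CPM. Rab7b, a small GTPase of late endosomes, had that order of means too, with 2.30 ± 0.16 CPM in the controls (2.11-fold lower). Its shAD4-2 libraries (2.26 to 3.38 CPM) overlapped the control range (2.13 to 2.43 CPM). Tmsb4x, the actin-binding peptide thymosin beta-4, was 2.22-fold lower, but this gene has near-identical copies between which the authors' counting could divide reads. Among genes of at least 100 CPM the cell surface protein Igsf8 (1.71-fold), the adhesion proteins Cdsn (1.55-fold) and L1cam (1.53-fold) and Mpnd (1.51-fold) were lower with shAD4-2.

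**Figure D2:**
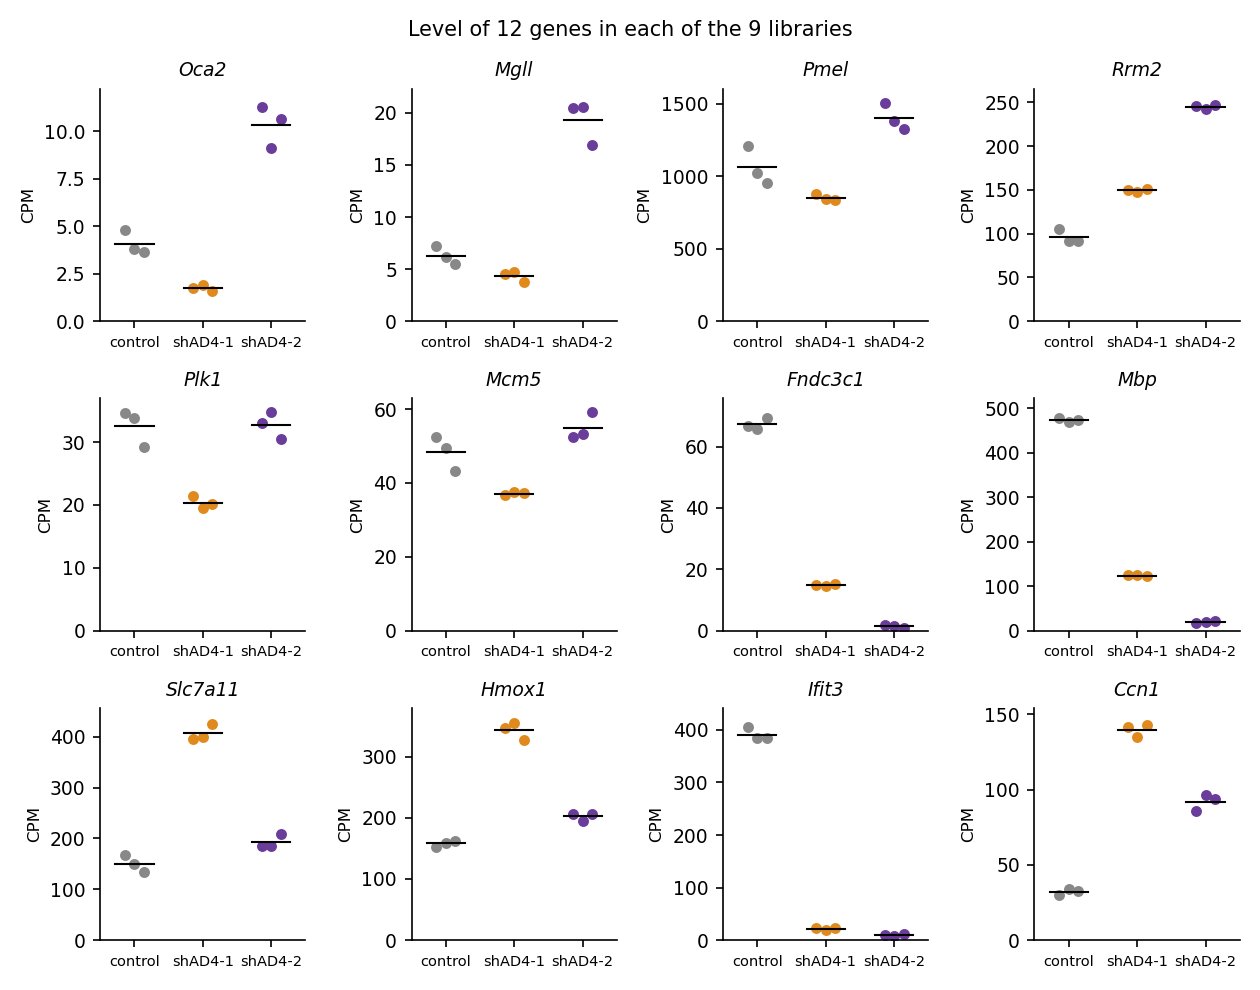
Level of 12 genes in each library (vertical axes, CPM, each from 0), with control, shAD4-1 and shAD4-2 libraries in grey, orange and purple and a bar at each group mean. In all 12 the shAD4-1 and shAD4-2 points do not overlap, which the rule that picked some of them required. Over all tested genes the same held for 22.9% higher and 22.5% lower with shAD4-2. The control stands between the hairpin groups (Oca2, Pmel), beside one of them (Plk1, Slc7a11) or beyond both (Mbp, Ccn1).

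Genes of the cell cycle lists were higher with shAD4-2 almost without exception, by small factors. In G1 and S phase, E2F factors switch on the genes that license and copy DNA, and later a second wave of genes drives entry into mitosis. Of 37 tested genes of G1/S and DNA replication, 33 were higher, 0 lower and 4 (E2f1, Ccne2, Gins1 and Orc1) did not pass, with a median log2 difference of 0.38. Of 34 genes of G2/M and the spindle, 33 were higher and 0 lower, with a median of 0.42, and the exception was the phosphatase gene Cdc25b. Both shares stand against 18.2% of all tested genes, whose median difference was 0.00. The counts were 34 and 33 without shAD4-2 replicate 3. No member reached 2-fold.

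Rrm2, the regulated subunit of ribonucleotide reductase, which makes deoxynucleotides, read 149, 148 and 151 CPM with shAD4-1 and 246, 242 and 247 CPM with shAD4-2. Controls read 91.6 to 105 CPM, so both lines were above them, and the hairpins differed 1.64-fold (log2 0.72 ± 0.03, adjusted p = 1.07e-13). Cdk2, the kinase of S-phase entry, read 89.7, 84.2 and 92.2 CPM with shAD4-1, below the controls (110 to 131 CPM), and 135, 129 and 135 CPM with shAD4-2 (log2 0.59 ± 0.04). The helicase subunits Mcm3 and Mcm4 were each 1.34-fold higher and Rrm1 1.28-fold. In the mitotic group Dlgap5, a spindle protein, went from 30.4 ± 1.3 to 51.4 ± 2.1 CPM (1.69-fold) and Ube2c, an E2 enzyme of the anaphase-promoting complex, from 34.3 ± 1.9 to 53.8 ± 0.7 CPM (1.57-fold). Cyclin A2 (Ccna2) was 1.41-fold, topoisomerase IIα (Top2a) 1.34-fold and the proliferation marker Mki67 1.32-fold higher.

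The place of the control differed between these genes. For Top2a the control (289 ± 20 CPM) was below both lines (322 ± 2 and 431 ± 4 CPM). Mki67 was highest in the control, at 258 ± 11 CPM, with 142 ± 2 CPM for shAD4-1 and 187 ± 2 CPM for shAD4-2. Over the lists, the median G1/S gene was 0.27 above the control on the log2 scale with shAD4-1 and 0.66 above it with shAD4-2, and the median G2/M gene 0.08 below it with shAD4-1 and 0.33 above it with shAD4-2. These 2 comparisons share the control libraries. Of the 8 cyclin-dependent kinase inhibitors and pocket proteins tested, Cdkn1a (log2 0.36) and Rbl1 (0.27) were higher, and Cdkn1b (-0.28) and Cdkn2d (-0.28) lower, 2 each way with or without shAD4-2 replicate 3. These shares, 25% in each direction, stand beside 18.2% higher and 17.8% lower among all tested genes.

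Promoter sequences are shown for genes that moved together, with the known element of each group in capitals. They are RefSeq promoter stretches of GRCm38.p6 (the authors' files use GRCm39), cut to at most 50 bases on each side of the match nearest the annotated start and never past that start, and given 5′ to 3′ on the gene's strand. In the 250 bases before the start, the E2F letters TTTCCCGC, TTTCGCGC, TTTGCCGC or TTTGGCGC, on either strand, occurred in 10 of the 32 G1/S genes that have a promoter in the table, 9 of them called higher. They occurred in 1.86% of all 32851 promoters and in 3.88% of the tested genes, of which 29.3% were called higher, against 18.5% of those without a match. These shares include the list genes, of which 33 of 37 were called higher with or without a match.
Cdk2, chr10:128705134-128705241, minus strand: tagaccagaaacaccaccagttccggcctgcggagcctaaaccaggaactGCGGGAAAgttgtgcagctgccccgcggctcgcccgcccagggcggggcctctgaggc
Cdc25a, chr9:109875462-109875569, plus strand: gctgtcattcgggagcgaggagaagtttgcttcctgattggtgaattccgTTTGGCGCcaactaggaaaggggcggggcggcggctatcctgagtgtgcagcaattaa
Mcm5, chr8:75109310-75109417, plus strand: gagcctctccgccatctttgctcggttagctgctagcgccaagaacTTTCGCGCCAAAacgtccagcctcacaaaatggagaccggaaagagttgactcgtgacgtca

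Cdc25a, a phosphatase that activates Cdk2, and Mcm5, a subunit of the replicative helicase, differed by 0.44 and 0.57 on the log2 scale and are shown for their matches. For the mitotic genes the letters were TTTGAA, the core of the cell cycle homology region (CHR), on either strand. They were found in 10 of 27 G2/M promoters, 10 of them of genes called higher, and in 16% of all promoters. Over all tested genes, 20.6% of those with a match were called higher, against 18.7% of those without, and 33 of the 34 list genes were called higher with or without one. Such a short motif is frequent, and a match describes letters only.
Top2a, chr11:99024190-99024262, minus strand: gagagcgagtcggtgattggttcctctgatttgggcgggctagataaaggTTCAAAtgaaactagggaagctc
Ube2c, chr2:164769850-164769928, plus strand: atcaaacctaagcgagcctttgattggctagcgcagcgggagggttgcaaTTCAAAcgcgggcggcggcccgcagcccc
Mki67, chr7:135716422-135716527, minus strand: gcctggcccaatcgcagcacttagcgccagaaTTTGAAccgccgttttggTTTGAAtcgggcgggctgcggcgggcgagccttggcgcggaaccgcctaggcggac

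Interferon-stimulated genes were lower with shAD4-2, at levels that both lines held far below the controls. Interferon signalling from receptors at the cell surface induces antiviral genes, and B16 control cells expressed many of them. Of 41 list genes with a row, 34 were tested. Of these 27 were lower with shAD4-2, 0 higher and 7 not called, against 17.8% lower among all tested genes, and the median difference was -0.52. At least 2-fold lower were 8, against 1.35% of all tested genes. The genes Stat2, Dtx3l, Samhd1, Ifit2, Parp9, Eif2ak2 and Irf1 did not pass. The count was 26 without shAD4-2 replicate 3.

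Ifit3, a partner of the antiviral RNA-binding protein IFIT1, read 23.3, 20.1 and 22.2 CPM with shAD4-1 and 10.6, 8.59 and 11.4 CPM with shAD4-2, against 384 to 405 CPM in the controls. Both lines were far under the control, and they differed 2.14-fold (log2 -1.10 ± 0.09, adjusted p = 2.89e-09). Rsad2, which encodes the antiviral enzyme viperin, read 94.1, 87.4 and 91.5 CPM with shAD4-1 and 66.7, 64.2 and 70.1 CPM with shAD4-2 (1.36-fold), with 777 to 836 CPM in the controls. Isg15, a ubiquitin-like modifier, read 29.5 ± 1.9 and 16.8 ± 1.7 CPM (1.76-fold). The RNA sensor RIG-I (Ddx58) read 85.6 ± 2.0 and 59.3 ± 3.0 CPM.

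The other genes at least 2-fold lower were at few CPM in both lines. Oas1a, an oligoadenylate synthetase, was 8.71 ± 0.67 and 3.95 ± 0.20 CPM, and the RNA sensor regulator Dhx58 4.64 ± 0.91 and 1.95 ± 0.24 CPM. Gbp3, Ifit3b and Oasl2 were 2.02-fold, 2.07-fold and 2.30-fold lower. Ifi44, with 73 reads over the shAD4-1 libraries and 24 over the shAD4-2 libraries, lost its call without shAD4-1 replicate 2 (adjusted p = 0.0798) or shAD4-2 replicate 1 (0.122). Oas2, with 79 and 34 reads, lost it in 5 of the 6 runs that left out 1 library (0.0671 to 0.208). Reads of Ifit3 and Ifit3b, and of the Oas1 genes, may be divided between near-identical copies.

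The fall did not extend to all immune genes. Of 14 tested genes of MHC class I presentation, Tap1 (log2 0.48) and H2-Q4 (0.30) were higher and B2m (-0.26) and H2-D1 (-0.10) lower, and of 15 NF-kB pathway genes Nfkb1 (0.24) alone was called. These shares, 14.3% in each direction and 6.67% higher, are below the 18.2% and 17.8% of all tested genes. The counts without shAD4-2 replicate 3 were 3 higher and 1 lower for MHC class I and 2 higher for NF-kB. H2-D1 was not called in the fit with all 9 libraries (adjusted p = 0.209), nor when either shAD4-1 replicate 1, shAD4-2 replicate 2 or shAD4-2 replicate 3 was left out (0.0528 to 0.148). The interferon-stimulated response element, searched on either strand as GAAA, any 2 bases and GAAA again, was found in 13 of 28 interferon list promoters, 12 of them of genes called lower. It was found in 2.98% of all promoters. Over all tested genes, 23.9% of those with a match were called lower, against 17.5% of those without. These shares include the interferon list genes, of which 27 of 34 were called lower with or without a match.
Ifit3, chr19:34583357-34583466, plus strand: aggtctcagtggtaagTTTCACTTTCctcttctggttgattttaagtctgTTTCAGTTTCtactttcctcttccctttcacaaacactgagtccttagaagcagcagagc
Isg15, chr4:156200825-156200934, minus strand: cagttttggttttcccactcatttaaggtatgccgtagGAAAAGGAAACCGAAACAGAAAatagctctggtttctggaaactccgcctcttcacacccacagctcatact
Rsad2, chr12:26456513-26456622, minus strand: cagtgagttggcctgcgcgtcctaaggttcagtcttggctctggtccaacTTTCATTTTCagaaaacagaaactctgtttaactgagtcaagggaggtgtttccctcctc

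Genes of the NRF2 antioxidant response were lower with shAD4-2. NRF2 (Nfe2l2) is held back by KEAP1 and, when freed by oxidants or electrophiles, induces glutathione, thioredoxin and iron-handling genes. Of 25 tested genes 19 were lower (76%, against 17.8% of all tested genes) and 0 higher, with a median of -0.31, and the 6 not called were Gsr, Txn1, Me1, Keap1, Tkt and Nfe2l2. The transcript of NRF2 itself did not differ beyond its spread (176 ± 2 CPM in each line, adjusted p = 0.923). Without shAD4-2 replicate 3 the count was again 19.

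Slc7a11, the cystine importer that supplies glutathione synthesis, read 396, 400 and 424 CPM with shAD4-1 and 185, 185 and 209 CPM with shAD4-2. The shAD4-2 libraries lay just above the controls (134 to 167 CPM) and the shAD4-1 libraries far above both. Its difference was 2.11-fold (log2 -1.08 ± 0.04, adjusted p = 3.39e-15). Hmox1, heme oxygenase 1, had the same order, with 347, 355 and 327 CPM for shAD4-1, 206, 195 and 207 CPM for shAD4-2 and 152 to 163 CPM in the controls (1.69-fold). The ferritin chains Fth1 (2744 ± 37 and 2040 ± 82 CPM, 1.34-fold) and Ftl1 (6135 ± 166 and 4827 ± 96 CPM, 1.27-fold) were lower too, although both have many processed copies in the genome. Gstm1, a glutathione transferase, read near the controls in shAD4-1 cells (70.3 ± 1.4 against 68.6 ± 5.6 CPM) and 1.51-fold lower with shAD4-2. Gsta4, another transferase, was 3.36-fold lower at 123 and 33 reads, and lost its call without shAD4-1 replicate 2 (adjusted p = 0.0764).

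The integrated stress response, in which ATF4 induces amino acid and stress genes when initiation factor eIF2α is phosphorylated, leaned the same way. Of 25 genes 16 were lower (64%, against 17.8% of all tested genes) and 3 higher (Atf5, Ddit4 and Sesn2), with a median of -0.13. Without shAD4-2 replicate 3, 13 were lower. The list shares Slc7a11 with the NRF2 list. Ddit3, the stress factor CHOP, read 618, 582 and 597 CPM with shAD4-1 and 448, 441 and 435 CPM with shAD4-2, both below the controls (759 to 915 CPM), a 1.36-fold fall. Aldh1l2, a mitochondrial folate enzyme, was 2130 ± 32 and 1685 ± 16 CPM (1.26-fold), both above the controls at 980 ± 16 CPM. Asns, asparagine synthetase, and Chac1, which degrades glutathione, were each 1.27-fold lower, and Sesn2 was 1.28-fold higher. The Atf4 transcript did not differ beyond its spread (721 ± 22 and 703 ± 24 CPM, adjusted p = 0.393). Vldlr, at 64 and 19 reads, was 3.02-fold lower and lost its call without shAD4-1 replicate 2, shAD4-2 replicate 1 or shAD4-2 replicate 3 (adjusted p 0.053 to 0.138).

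The composite C/EBP-ATF element, letters TGATGCAA on either strand, to which ATF4 and its C/EBP partners bind, was found in 5 of 23 promoters of this list, 5 of them of genes called lower. It was found in 0.791% of all promoters and in 68 tested genes. Of those, 39.7% were called lower, against 17.6% of the tested genes without a match. These shares include the list genes, of which 16 of 25 were called lower with or without a match.
Slc7a11, chr3:50443614-50443710, minus strand: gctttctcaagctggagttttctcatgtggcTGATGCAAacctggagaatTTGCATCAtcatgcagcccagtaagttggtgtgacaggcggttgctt
Chac1, chr2:119350999-119351106, plus strand: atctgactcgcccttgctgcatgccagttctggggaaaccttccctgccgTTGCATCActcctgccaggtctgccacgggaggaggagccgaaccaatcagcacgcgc
Atf3, chr1:191183386-191183493, minus strand: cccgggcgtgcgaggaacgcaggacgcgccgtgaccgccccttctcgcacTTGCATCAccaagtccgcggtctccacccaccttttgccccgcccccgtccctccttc

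Atf3, a stress-induced factor of the same family, was lower by 0.27 ± 0.03 on the log2 scale (179 ± 5 and 149 ± 3 CPM). The Slc7a11 stretch holds the letters once on each strand.

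Genes of hypoxia and glycolysis were slightly lower with shAD4-2. HIF factors induce glucose uptake, glycolysis and angiogenic signals when oxygen is short. Of 35 tested genes 23 were lower (65.7%, against 17.8% of all tested genes) and 1 (Hif1a, log2 0.18) higher, with a median of -0.17. Without shAD4-2 replicate 3, 19 were lower. The glycolytic enzyme Eno1 was 2909 ± 104 and 2444 ± 32 CPM (1.19-fold lower), and the collagen hydroxylases P4ha1 (log2 -0.26) and P4ha2 (-0.27) and the stress gene Ndrg1 (1.21-fold) were lower too. Vegfa, the main endothelial growth factor, read 341, 321 and 319 CPM with shAD4-1 and 273, 266 and 267 CPM with shAD4-2. The shAD4-2 libraries lay in the control range (251 to 280 CPM) and the shAD4-1 libraries above it (log2 -0.28 ± 0.03, adjusted p = 2.71e-07).

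**Figure D3:**
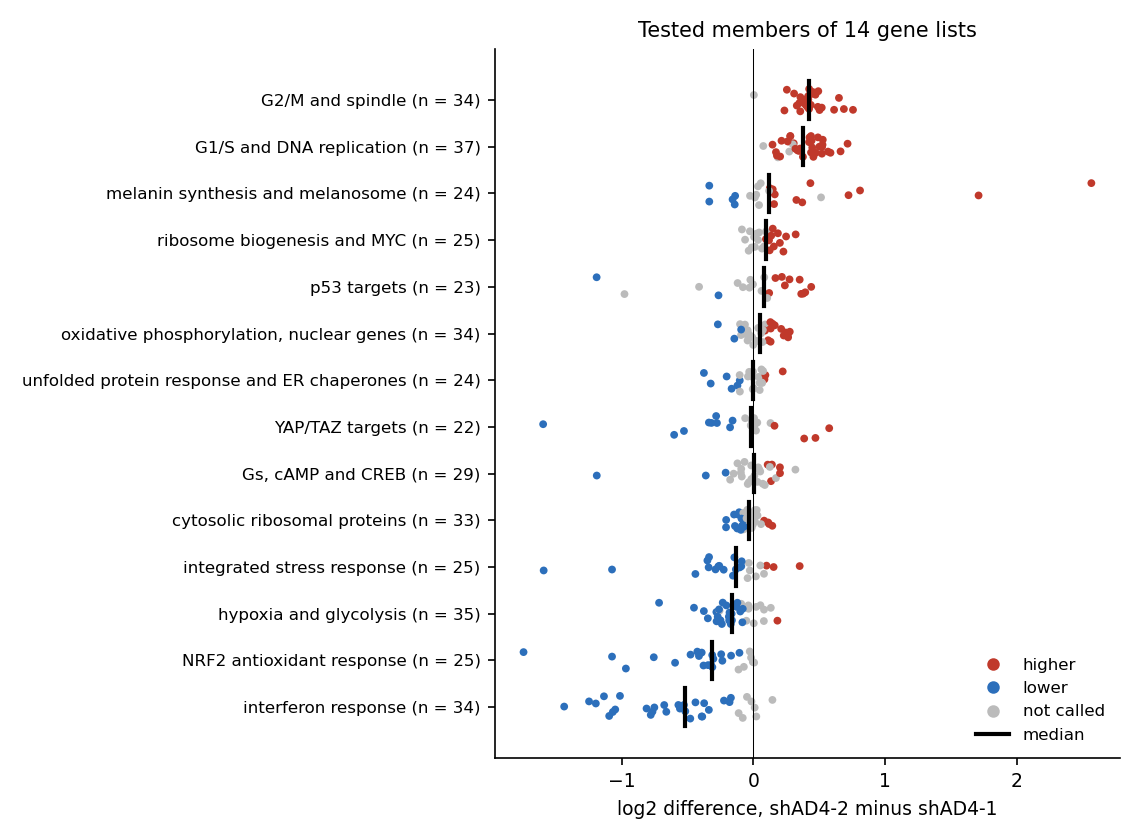
Log2 difference (horizontal axis, shAD4-2 minus shAD4-1) of the tested members of 14 gene lists, with a bar at each list's median and each list's number of members in brackets. Points are spread vertically only to separate them. The 2 cell cycle lists lie to the right of 0 with medians of 0.42 and 0.38, and the interferon list furthest to the left with a median of -0.52.

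Pigment genes were mixed, with some of the largest rises in the data. Of 24 tested genes of melanin synthesis and the melanosome 11 were higher (45.8%, against 18.2% of all tested genes) and 5 lower (Trpm1, Hps1, Atp7a, Gpnmb and Tyr), a share of 20.8% near the 17.8% of all tested genes. Leaving out shAD4-2 replicate 3 gave 11 and 4. Pmel, which forms the amyloid fibres of the melanosome, read 874, 843 and 835 CPM with shAD4-1 and 1506, 1381 and 1322 CPM with shAD4-2. The controls (951 to 1210 CPM) lay between the lines, which differed 1.65-fold (log2 0.72 ± 0.04, adjusted p = 7.18e-13). Mlph, melanophilin, which tethers melanosomes to myosin Va, had the same order, with 76.4, 75.2 and 73.5 CPM, then 135, 136 and 123 CPM, and 94.9 to 118 CPM in the controls (1.75-fold). Slc7a8, an amino acid transporter, went from 1.06 ± 0.15 to 3.47 ± 0.35 CPM (3.27-fold), and Mlana from 217 ± 3 to 292 ± 7 CPM (1.35-fold). The enzymes that make melanin differed less. Tyrp1 did not differ beyond its spread (3766 ± 16 and 3793 ± 50 CPM, adjusted p = 0.766), Dct was 1.12-fold higher, and tyrosinase (Tyr) was 1.10-fold lower.

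The lineage factors above these genes moved modestly. Of 19 tested melanocyte lineage genes 7 were higher (36.8%, against 18.2% of all tested genes) and 4 lower (Cited1, Snai2, Met and Bcl2, 21.1% against 17.8%), or 8 and 4 without shAD4-2 replicate 3. Mitf, the master regulator of melanocytes, read 104, 102 and 102 CPM with shAD4-1 and 129, 121 and 128 CPM with shAD4-2 (1.23-fold), with 122 to 178 CPM in the controls. Pax3, which activates Mitf, was 1.24-fold higher with shAD4-2. The M-box letters TCATGTG or TCACATG, bound by MITF, were found in 7 of 19 pigment promoters, of which 2 belonged to genes called higher and 3 to genes called lower, and in 5.82% of all promoters. Over all tested genes, 15.0% of those with a match were called higher, against 19.1% of those without.

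Several p53 targets were higher with shAD4-2 along with the cell cycle genes. Of 23 tested 10 were higher (43.5%, against 18.2% of all tested genes) and 2 (Fas and Rrm2b) lower, with a median of 0.08, and without shAD4-2 replicate 3 the counts were 11 and 1. Cdkn1a, the kinase inhibitor p21, read 506, 486 and 490 CPM with shAD4-1 and 647, 636 and 622 CPM with shAD4-2, on either side of the controls (533 to 584 CPM). Mdm2, the ubiquitin ligase of p53, was 308 ± 5 and 405 ± 1 CPM (1.31-fold) against 158 ± 4 CPM in the controls. Ccng1 was 1.30-fold and the death receptor Tnfrsf10b 1.36-fold higher. The death receptor Fas, at 66 and 26 reads, was 2.29-fold lower, but not by DESeq2 (adjusted p = 0.0875), and it lost the call in 5 of the 6 runs that left out 1 library. Ribosome biogenesis genes had 11 of 25 higher (44%, against 18.2% of all tested genes) and 0 lower, or 10 and 0 without shAD4-2 replicate 3, led by the nucleolar protein Nop56 (log2 0.32), while Myc did not differ beyond its spread (42.2 ± 1.2 and 44.1 ± 2.1 CPM, adjusted p = 0.349). Cytosolic ribosomal proteins leaned the other way, with 12 of 33 lower (36.4%, against 17.8%), 4 higher and a median of -0.04, or 11 and 4 without that library. Of 44 histone and DNA modifying enzymes 16 were higher (36.4%, against 18.2%) and 6 lower (13.6%, against 17.8%), or 15 and 4 without that library, and 2 were lower without shAD4-1 replicate 1. The methyltransferases Dnmt3a (1.31-fold) and Ezh2 (1.25-fold) were among the former.

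Genes of the pathway named in the series title were divided. YAP1 and its partner TAZ are transcriptional coactivators that bind TEAD factors when the Hippo kinases are inactive. Of 22 tested YAP/TAZ targets 4 were higher (Dock5, Ajuba, Birc5 and Ccn2), the same share of 18.2% as among all tested genes, and 9 lower (40.9%, against 17.8%), with a median of -0.02, or 4 and 8 without shAD4-2 replicate 3. The 2 best-known targets moved in opposite directions. Ccn1 (Cyr61) read 142, 135 and 143 CPM with shAD4-1 and 85.7, 96.3 and 94.1 CPM with shAD4-2, a 1.52-fold fall (log2 -0.60 ± 0.04, adjusted p = 1.51e-10), with both lines above the controls (30.3 to 33.9 CPM). Ccn2 (CTGF) read 3.79, 3.69 and 3.71 CPM with shAD4-1 and 6.48, 5.17 and 4.97 CPM with shAD4-2 (1.49-fold higher, adjusted p = 0.00339), with 1.19 to 2.32 CPM in the controls. Ankrd1 was near the limit of detection, with 46 and 40 reads over the groups, 0 in the controls and no difference beyond its spread (adjusted p = 0.931). Yap1 was 205 ± 2 and 222 ± 4 CPM, a 1.08-fold difference that passed in the 6-library fit (adjusted p = 0.00737) and not in the fit with all 9 libraries (0.0540). Of 24 genes for YAP, TEADs and Hippo kinases 5 were higher (20.8%) and 7 lower (29.2%), or 6 and 8 without that library, between -0.28 (Amotl2) and 0.23 (Map4k4) on the log2 scale. Birc5, which is also in the mitotic list, was 1.39-fold higher.

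The Gs pathway differed little. Gαs, the product of Gnas, couples receptors to adenylyl cyclase, and cAMP then acts through protein kinase A and CREB. Gnas read 1165, 1127 and 1124 CPM with shAD4-1 and 1115, 1114 and 1102 CPM with shAD4-2, and was not called (adjusted p = 0.311). Of 29 tested genes of Gs, cAMP and CREB 5 were higher (Prkaca, Prkar2a, Adcy3, Prkar2b and Rapgef4) and 3 lower (Gnal, Pde10a and Pde4b), no larger shares than the 18.2% and 17.8% of all tested genes. Leaving out shAD4-2 replicate 3 gave 4 and 3, and 3 were higher without shAD4-1 replicate 1, shAD4-1 replicate 2 or shAD4-2 replicate 2. Gnal, at 89 and 35 reads, was 2.28-fold lower, without a call by DESeq2 (adjusted p = 0.0541) and in 3 of the runs that left out 1 library. Among 9 tested adhesion receptors 2 were higher (22.2%, against 18.2% of all tested genes) and 4 lower (44.4%, against 17.8%). The counts were the same without shAD4-2 replicate 3. Celsr2 (log2 -0.35), Adgra3 (-0.31) and Adgre5 (-0.31) were among the lower.

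Angiogenic factors had shares near those of all tested genes, with 4 of 23 members higher (17.4%, against 18.2% of all tested genes) and 6 lower (26.1%, against 17.8%), or 5 and 6 without shAD4-2 replicate 3. Besides Vegfa, the co-receptor Nrp2 was 1.24-fold and Angptl2 1.35-fold lower, while Serpinf1, which encodes the anti-angiogenic factor PEDF, rose from 45.1 ± 1.4 to 67.2 ± 2.3 CPM (1.49-fold). The platelet-derived growth factors parted: Pdgfb was 2.08-fold higher and Pdgfc 2.43-fold lower, at mean levels of 2.90 and 0.749 CPM with shAD4-2. In the surroundings of the cell, 12 of 32 extracellular proteases and inhibitors were lower (37.5%, against 17.8%) and 3 higher, or 13 and 3 without shAD4-2 replicate 3. The inhibitors Timp3 (738 ± 3 and 500 ± 10 CPM, 1.47-fold) and Reck (1.42-fold) were lower, and the membrane protease Mmp14 (log2 0.23) was higher. Notch pathway genes had 7 of 15 lower (46.7%, against 17.8%) and 0 higher, among them Notch3 (1.36-fold), again 7 without shAD4-2 replicate 3 but 4 without shAD4-1 replicate 2 or shAD4-2 replicate 2. Metal handling genes had 11 of 20 lower (55%, against 17.8%), or 12 without shAD4-2 replicate 3, led by the ferritins and the zinc importer Slc39a10 (1.54-fold), and 4 higher, with the metallothionein Mt2 at 100 ± 1 and 146 ± 8 CPM.

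The difference also varied with the chromosome. Over the 439 tested genes of chromosome 14 the median log2 difference was 0.16. With shAD4-2, 206 of these genes were higher (46.9%, against 18.2% of all tested genes) and 24 lower (5.47%, against 17.8%). In 4 equal blocks of that chromosome's genes, in gene order, the medians lay between 0.15 and 0.18. Chromosome 12 had a median of 0.12 (184 of 479 higher, 38.4%, and 36 lower, 7.52%) and blocks from 0.10 to 0.13. The median of chromosome 16 was 0.07. On the other side stood chromosome 6 (-0.10), chromosome 4 (-0.09) and chromosome 18 (-0.08). On chromosome 6, 59 of 675 genes were higher (8.74%) and 230 lower (34.1%). Chromosome 4 had 81 of 861 higher (9.41%) and 289 lower (33.6%). On chromosome 4 the first 2 blocks had medians of -0.17 and -0.16, and the remaining blocks 0.04 and -0.05. Against the control, the medians with shAD4-1 and shAD4-2 were 0.03 and 0.18 on chromosome 14 and -0.17 and -0.05 on chromosome 12. They were -0.04 and -0.12 on chromosome 6 and -0.01 and -0.08 on chromosome 4. These 2 comparisons share the control libraries. Without shAD4-2 replicate 3 the medians between the hairpins were 0.15, 0.11 and 0.07 on chromosomes 14, 12 and 16. Chromosomes 6, 4 and 18 then had -0.09, -0.09 and -0.09. Copy number was not measured here, and its part in these medians was not tested. Centring each chromosome on a median of 0 shifted only the log2 differences and kept the adjusted p-values, so no call could be lost. Of the 4817 called genes 4756 kept their direction. By direction, the cell cycle lists still had 33 and 33 members higher, and the interferon and NRF2 lists 27 and 19 lower. No new test was run on the centred values.

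**Figure D4:**
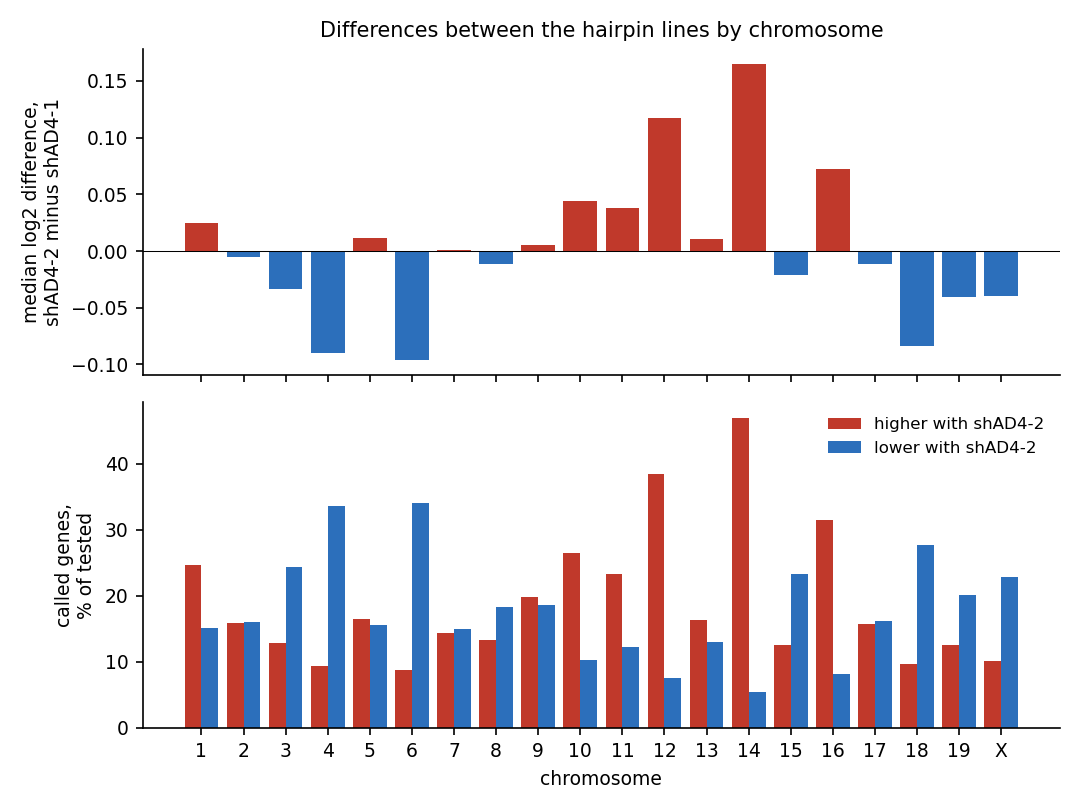
Upper panel: median log2 difference (shAD4-2 minus shAD4-1) of the tested genes of each chromosome. Lower panel: percentage of those genes called higher (red) and lower (blue) with shAD4-2. Chromosomes 14 and 12 have the highest medians, 0.16 and 0.12, and chromosomes 6 and 4 the lowest, -0.10 and -0.09.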

How the data were processed

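The series holds 9 RNA-seq libraries made from total RNA, of which the 6 hairpin libraries entered the tests. Per the labels' protocols, the VAHTS Universal V6 RNA-seq kit was used. The submitters' processing notes name fastp, HISAT2, HTSeq and GRCm39. Their versions and the strand setting of the counting were not found in those sources, so overlapping and antisense genes cannot be told apart. The authors deposited whole-number read counts per gene, and a second table with FPKM values. Columns, per the file headers, are named for a control, a first and a second knockdown, and the knockdown numbers were matched to the hairpin numbers of the labels. The deposited FPKM follow from the deposited counts: in all 155616 nonzero values the implied gene length was the same whole number, within 0.001, in every library.

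Counts were tested with edgeR 4.0.16 in R 4.3.3 (filterByExpr by group, TMM, glmQLFit, glmQLFTest) with Benjamini-Hochberg adjustment across the 13393 tested genes and a threshold of 0.05. SEs are the log2 difference divided by the square root of F. CPM are reads per M reads of the column total. Differences from the control come from a fit of all 9 libraries and are given as references. Symbols were matched to 49 gene lists, and 23 entries by another symbol of the same gene ID. The members and lists were chosen with earlier results of these data known. Lists have no set test, and their counts are read against the share of all tested genes. Named genes were, clone names left out, the 12 largest rises and falls among called genes whose libraries did not overlap, with a mean of 5 CPM or more in the higher of the groups, the 8 largest each way of at least 100 CPM, up to 5 called members per list by adjusted p with any at least 2-fold apart, the 6 strongest each way among genes called against the control in opposite directions, and always Vegfa, Gnas, Yap1, Ccn1, Ccn2 and Ankrd1. Other genes named as list members, as uncalled exceptions or for their promoters were chosen after their values were seen. Promoter sequences and chromosomes came from RefSeq tables of GRCm38.p6, by symbol or gene ID. Of the tested genes 10635 had a promoter there and 13236 a chromosome. The test script was tested on simulated data, with 50 changed genes for each fold size. It recovered 70% at 1.25-fold, 90% at 1.5-fold and 100% at 2-fold, with 14 false calls. Changes below 1.25-fold, such as the 1.17-fold of the median called gene, were not simulated. Genes with few reads were not among those changed.

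The replicates were compared by a chi-square test over genes. Values per degree of freedom were 2.98 to 6.18 within groups, so no 2 libraries agreed within sampling noise, and 19.5 to 23.2 between groups. The alternatives tried were DESeq2 1.42.0, RLE or upper-quartile scaling, and a minimum of 1 CPM in 3 libraries or no filter. Others were all 9 libraries in the fit, a replicate block, leaving out each library, glmTreat at 1.5-fold and centring each chromosome. A further set used limma 3.58.1 on log2(FPKM + 1), with no minimum or with 1 FPKM needed in 3 libraries. On log2(FPKM + 0.1) limma was run with that minimum only. Adgrl4 was not analysed here, and some list members are not reported by name.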

Additional observations from a re-analysis of the deposited data

Results flagged for a closer look

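In the fit of all 9 libraries 91 genes differed from the control in opposite directions in the 2 lines, 44 higher and 47 lower with shAD4-2 than with shAD4-1. All 91 were also called in the direct comparison of the lines, which is the test of the difference itself. That comparison uses the same hairpin libraries that picked the 91, so its calls are not separate evidence. The strongest on the first side were Oca2 (log2 -1.16 against the control with shAD4-1 and 1.41 with shAD4-2), Mgll (-0.47 and 1.68), Chadl (-0.72 and 0.33), Mlph (-0.43 and 0.38), Pmel (-0.26 and 0.46) and Nmral1 (-0.30 and 0.26). On the other side were Pwwp3b (0.43 and -0.60), Arhgap33 (0.44 and -0.41), Slc4a4, a bicarbonate cotransporter (0.37 and -0.49), Azgp1 (0.46 and -0.31), Itpr3, a calcium release channel (0.36 and -0.30), and Rora, a nuclear receptor of the circadian clock (0.29 and -0.26). Of the 6 named genes higher with shAD4-2, Oca2, Mlph and Pmel are pigment genes. The 2 comparisons share the control libraries.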

How the results depend on the processing

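Replicate numbers did not pair the libraries: deviations of same-numbered libraries correlated at 0.012, -0.008 and 0.014. With the replicate block 5491 genes were called (2786 higher, 2705 lower), 4812 of them among the 4817. Asking for 1.5-fold (glmTreat) left 61 genes (21 higher, 40 lower), 13 and 32 of them at least 2-fold, and 1 G1/S, 0 G2/M, 3 interferon, 2 NRF2, 1 integrated stress response and 0 hypoxia members, since most differences are smaller. On log2(FPKM + 1) with no minimum limma called 3121 genes (1583 higher, 1538 lower) and 11 hypoxia members. Counts of at least 2-fold higher and lower genes were 4 and 5 there, 4 and 5 with the minimum of 1 FPKM, 5 and 24 on log2(FPKM + 0.1), 14 and 100 among genes of at least 1 CPM, and 75 higher with no filter. A pseudocount shrinks low genes, and the cause was not tested otherwise. Leaving out each library gave 3885 to 4757 genes (2006 to 2420 higher, 1865 to 2337 lower), 45 to 55 and 156 to 184 at least 2-fold, 30 to 34 G1/S, 32 to 33 G2/M, 21 to 26 interferon, 16 to 19 NRF2, 12 to 15 integrated stress response and 16 to 22 hypoxia members. RLE scaling, upper-quartile scaling, DESeq2 and the 9-library fit called 4813, 4771, 4219 and 3777 genes. Upper-quartile scaling gave 2238 higher and 2533 lower. Of the 253 named genes, 17 lost their call when some single library was left out, none changed direction there, and Rpl15 turned to -0.022 with its chromosome centred. The fibroblast marker median of 0.18 turned to -0.0346 and -0.0202 on log2(FPKM + 1) and log2(FPKM + 0.1) with the minimum. At this depth calls of some genes with few reads did not hold in every run: Oas2 and Fas lost theirs in 5 of the 6 runs that left out 1 library, Vldlr in 3 and Ifi44 in 2.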

Other observations

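Replication-dependent histone genes, looked at after their values were seen, held the widest rises at low counts. H3c2 had 0 reads in each shAD4-1 library and 95, 46 and 64 reads in the shAD4-2 libraries, with 1 read over the controls. Against a floor of 3 reads over the shAD4-1 group it was at least 75.4-fold higher. H2ac4 had 0, 1 and 1 reads with shAD4-1 and 30, 21 and 24 with shAD4-2, a ratio of 41.4 (exact 95% counting interval 11.1 to 348), with 2 reads over the controls. H2bc6 had 3, 3 and 4 reads with shAD4-1 and 25, 18 and 35 with shAD4-2. Of 11 such genes tested, 10 of them on chromosome 13, 5 were called higher (H1f2 and H2bc4 besides these 3) and 0 lower. That is 45.5% higher, against 18.2% higher and 17.8% lower among all tested genes. The counts were the same without shAD4-2 replicate 3. H1f3, H2bc21, H3c3, H4c2, H4c4 and H4c9 did not pass. How the libraries treated transcripts without a poly(A) tail is not given in the sources used here, and reads of near-identical histone genes may be divided between them. Nxf3, of the family of RNA export factors, was similar, with 1, 0 and 2 reads with shAD4-1 and 47, 35 and 25 with shAD4-2 (ratio 39.4, interval 13.1 to 194) and 0 in the controls. The intervals cover counting error only.

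The pathway terms that the authors attached to the genes covered 261 KEGG and 603 Reactome terms with 20 to 200 tested genes. Their counts stand beside 18.2% higher and 17.8% lower among all tested genes. The KEGG terms with the highest medians were DNA replication (24 of 35 higher and 1 lower, median 0.20), the Fanconi anemia pathway (21 of 50 and 2, 0.16) and mismatch repair (12 of 22 and 1, 0.15). The Spliceosome term was also high, with 58 of 126 higher and 6 lower (0.10). KEGG's wider Cell cycle term leaned as the cell cycle lists did but by a smaller share, with 52 of 120 higher and 13 lower (0.11). Of the Reactome terms, activation of the pre-replicative complex had the highest median (23 of 30 higher and 3 lower, 0.30). Lowest were DNA adducts in chemical carcinogenesis in KEGG (1 of 30 higher and 14 lower, -0.24) and glutathione conjugation in Reactome (0 of 34 and 14, -0.19). KEGG's glutathione metabolism had 6 of 57 higher and 23 lower (-0.14). Other terms leaned the other way from the report's lists of like name, or hardly leaned. Reactome's Interferon Signaling had 11 of 50 higher and 13 lower (-0.016), Cellular response to hypoxia 21 of 66 higher and 8 lower (0.060), KEAP1-NFE2L2 pathway 23 of 71 higher and 10 lower (0.040), and Nuclear events mediated by NFE2L2 17 of 52 higher and 5 lower (0.044). KEGG's HIF-1 signaling pathway leaned as the hypoxia list did, with 13 of 87 higher and 38 lower (-0.035). Terms share genes with each other and with the lists of the report.

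Adhesion and signalling lists outside the report were mixed, and their counts stand beside 18.2% higher and 17.8% lower among all tested genes. Cell-cell adhesion had 5 of 22 higher and 8 lower, with Ncam1 (log2 -0.42) lower and Mcam (0.34) higher. Axon guidance had 5 of 43 higher and 10 lower, integrins and focal adhesion 7 of 29 and 6, matrix proteins 6 of 26 and 7, and axon receptor Plxnb1 was 0.49 higher. The Wnt inhibitor Dkk3 was 2.09-fold lower (9.25 ± 0.54 and 4.43 ± 0.52 CPM). Cholesterol synthesis had 3 of 24 higher and 4 lower, with Hmgcs1 (0.44) among the higher. Apoptosis genes had 5 of 27 higher and 6 lower, and Casp12 was 5.25-fold lower at 141 and 24 reads. The unfolded protein response had 3 of 24 higher and 6 lower. ERK feedback genes had 2 of 17 higher and 4 lower, with Dusp6 (-0.42) and Spred2 (-0.45) lower. Cell-cell adhesion had 3 higher without shAD4-1 replicate 1, shAD4-2 replicate 2 or shAD4-2 replicate 3. Without shAD4-2 replicate 3, ERK feedback had 7 lower, and apoptosis genes had 3 higher whichever library was left out. Circadian clock genes had 1 of 18 higher and 6 lower, or 1 and 8 without shAD4-2 replicate 3, with Per3 at -0.82.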
